A study of Homo sapiens with 4 samples.

Results

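The genes described here are 10 members of the interleukin-1 system and of the cytokines that act beside it: the ligands IL1A, IL1B and IL18, the antagonist IL1RN, the receptors IL1R1, IL1RAP, IL1R2 and IL1RL1, and the cytokines IL6 and IL8, which is now named CXCL8. All non-control probes with 1 of these names on the array were taken, 17 probes of 41000, and each probe was kept apart. The array names 30499 genes or transcripts in all. The study asked which genes depend on GATA1, a zinc finger transcription factor of the megakaryocytic and erythroid lineages, in Meg-01, a human cell line grown from a megakaryoblastic leukemia. RNA came from GATA1 5-13 and GATA1 4-14, each a single soft-agar colony of Meg-01 with a stable lentiviral GATA1 shRNA, and from GATA1 Neg, a pool of Meg-01 cells infected with a lentivirus for a negative control shRNA. All cells had been infected with a lentivirus. Puromycin selection is given for the GATA1 shRNA cells and not stated for GATA1 Neg, and only the knockdown cells were clones, so that the shRNA and the choice of a colony cannot be told apart within 1 clone. The extraction text of the labels names the CMK line, and Meg-01 was taken from the remaining labels and from the methods. Each clone was set against GATA1 Neg on 2 Agilent 2-colour arrays. Replicate 1 had the knockdown RNA in the red dye (Alexa647) and replicate 2 had it in the green dye (Alexa555). No treatment or time point was part of the design.

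Interleukin-1 alpha and interleukin-1 beta bind the receptor IL1R1, which signals only once the accessory protein IL1RAP has joined it. The antagonist IL1RN occupies IL1R1 without signaling, and IL1R2 is a decoy receptor that takes up ligand without passing a signal on. Signaling through MYD88 and the IRAK kinases leads to NF-kappaB and AP-1, whose best known target genes include IL6, IL8 and IL1B itself. IL1RL1, also called ST2, is the receptor for interleukin-33 and uses the same accessory protein. Megakaryocytes and platelets are a known source of interleukin-1.

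The stretches of 250 bases before the RefSeq gene start (GRCh38.p14, read 5′ to 3′ along the gene) are shown for the members with the largest differences reported here, so that the letters for the factors named above can be seen. Capitals mark matches on either strand to GATA motifs (AGATAA, also TGATAA, further AGATAG, finally TGATAG), to the AP-1 motif (TGANTCA) and to the NF-kappaB motif (GGGRNNYYCC). Here R is A or G, Y is C or T, and N is any base. Other forms of these motifs were not searched for, so lower-case letters do not exclude a site. RefSeq held windows for 9 of the 10 genes.
IL1A (chr2:112784494-112784743, minus strand): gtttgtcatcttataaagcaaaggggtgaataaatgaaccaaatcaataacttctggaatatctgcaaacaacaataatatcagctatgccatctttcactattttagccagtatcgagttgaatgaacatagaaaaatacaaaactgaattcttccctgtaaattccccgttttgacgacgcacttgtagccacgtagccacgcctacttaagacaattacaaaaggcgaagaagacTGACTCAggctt
IL1B (chr2:112836780-112837029, minus strand): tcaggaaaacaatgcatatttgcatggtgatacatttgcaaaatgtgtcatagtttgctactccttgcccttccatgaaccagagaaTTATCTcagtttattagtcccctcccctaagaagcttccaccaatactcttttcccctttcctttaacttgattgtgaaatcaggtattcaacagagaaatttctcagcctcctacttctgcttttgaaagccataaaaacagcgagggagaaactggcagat
IL1RL1 (chr2:102311313-102311562, plus strand): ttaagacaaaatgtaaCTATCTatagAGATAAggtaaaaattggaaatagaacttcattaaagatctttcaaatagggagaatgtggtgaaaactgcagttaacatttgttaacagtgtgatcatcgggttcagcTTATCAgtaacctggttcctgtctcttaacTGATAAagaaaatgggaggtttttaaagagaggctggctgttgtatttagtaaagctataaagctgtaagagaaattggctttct
IL6 (chr7:22726950-22727199, plus strand): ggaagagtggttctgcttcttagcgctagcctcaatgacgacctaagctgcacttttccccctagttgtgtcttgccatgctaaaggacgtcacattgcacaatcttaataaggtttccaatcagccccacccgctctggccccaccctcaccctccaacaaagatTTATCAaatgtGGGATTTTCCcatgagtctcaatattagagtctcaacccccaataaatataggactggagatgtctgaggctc
CXCL8 (chr4:73740319-73740568, plus strand): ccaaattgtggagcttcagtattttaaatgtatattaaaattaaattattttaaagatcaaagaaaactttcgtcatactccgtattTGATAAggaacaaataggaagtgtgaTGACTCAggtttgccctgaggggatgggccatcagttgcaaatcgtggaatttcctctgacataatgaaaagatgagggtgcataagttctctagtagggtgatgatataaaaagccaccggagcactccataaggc

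Of the 17 windows of these genes, some of which overlap, 7 held a GATA match, 5 an AP-1 match and 2 an NF-kappaB match. No match overlapped another within a window. The windows of IL1A overlap, and the same AP-1 letters TGACTCA were counted in both. Among all 35116 windows of this length, 22.3% held a GATA match, 6.57% an AP-1 match and 9.96% an NF-kappaB match. The IL1A window held the AP-1 letters TGACTCA from 12 to 6 bases before the start and no GATA match. The IL1B window held the GATA letters TTATCT from 163 to 158 bases before the start. The CXCL8 window held the GATA letters TGATAA from 163 to 158 bases and the AP-1 letters TGACTCA from 137 to 131 bases before the start. In the IL6 window, the GATA letters TTATCA stood from 84 to 79 bases and the NF-kappaB letters GGGATTTTCC from 73 to 64 bases before the start. The window of IL1RL1 shown held 4 GATA matches and was chosen for them, whereas its other window held 0 GATA matches and 1 AP-1 match. A match is a string of letters, and binding of any factor was not measured on these arrays.

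The transcript of the targeted gene was measured first. GATA1 (probe A_24_P374244) had log2 ratios (knockdown over GATA1 Neg) in clone GATA1 5-13 of -0.21 and -0.34, and in clone GATA1 4-14 of -0.43 and -0.58. It was lower on all 4 arrays, with a mean of -0.39 ± 0.16 (SD, n = 2 clones) and an adjusted p of 0.605 by limma with Benjamini-Hochberg adjustment over 40974 probes. On these arrays, 0 of 40974 probes passed an adjusted p under 0.05 in either direction, against 1656 lower and 1386 higher at an unadjusted p under 0.05. In the control RNA, the megakaryocytic genes ITGA2B, ITGB3, GP1BA, GP9 and NFE2 were well above background on all arrays on at least 1 of their probes, whereas PF4 and VWF were above background on no array. Lineage markers moved too: GP1BA (A_23_P152926) had log2 ratios of -1.77 and -1.59 in GATA1 5-13 and -0.21 and -0.12 in GATA1 4-14, and ITGA2B had means of -0.29 and -0.30 on its 2 probes, with adjusted p of 0.712, 0.651 and 0.666 by limma. Their part in the results below was not tested. The markers of fibroblasts (0 of 4 genes) and of monocytes and macrophages (0 of 4) were not above background on all arrays in the control RNA, and 1 of 3 T-cell genes (CD3E) and 1 of 3 B-cell genes (CD79A) were.

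Of the 17 interleukin probes, 12 were well above background in both RNAs on all 4 arrays (58.1% of all probes), and 2 were above background in neither RNA on any array (31.1% of all probes). None passed the adjusted threshold (0% of all probes in each direction). At an unadjusted p under 0.05 by limma, 4 of the 17 were lower in the knockdown clones (4.04% of all probes), namely the probes of IL1A and IL1B, 1 probe of IL1RAP and 1 of those named IL8, and 1 was higher (3.38% of all probes), that of IL6, which makes 5 in either direction (7.42% of all probes). At an unadjusted p of at most 0.005 by limma, 1 was lower (0.574% of all probes) and 0 were higher (0.327%). The lower one was A_23_P89380, a probe named IL8 that the array file places on chromosome 17. The study used that cutoff on p-values of the Rosetta Resolver error model, by which it listed IL6 as higher. The counts here are therefore not those of the study. The study also measured a gene printed as ILA1 by real-time RT-PCR on separate RNA. It listed IL6 among the genes that had a GATA1 ChIP-on-chip peak as well. Neither of these measurements was used here. The sign was negative on all 4 arrays for 5 probes (13.4% of all probes) and positive on all 4 for 3 (12.8%). A mean log2 ratio of -1 or below was found for 2 probes (0.337% of all probes), IL1A and IL1B, and one of 1 or above for 0 (0.286%). The median absolute log2 ratio of the 17 probes was 0.16, and that of all probes was 0.06. An error-weighted mean of the 4 arrays, which rests on the scanner program's error for each spot and not on the spread between clones, placed 4 of the 17 below an adjusted p of 0.05 as lower (4.31% of all probes) and 3 as higher (4.02%).

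**Figure D1:**
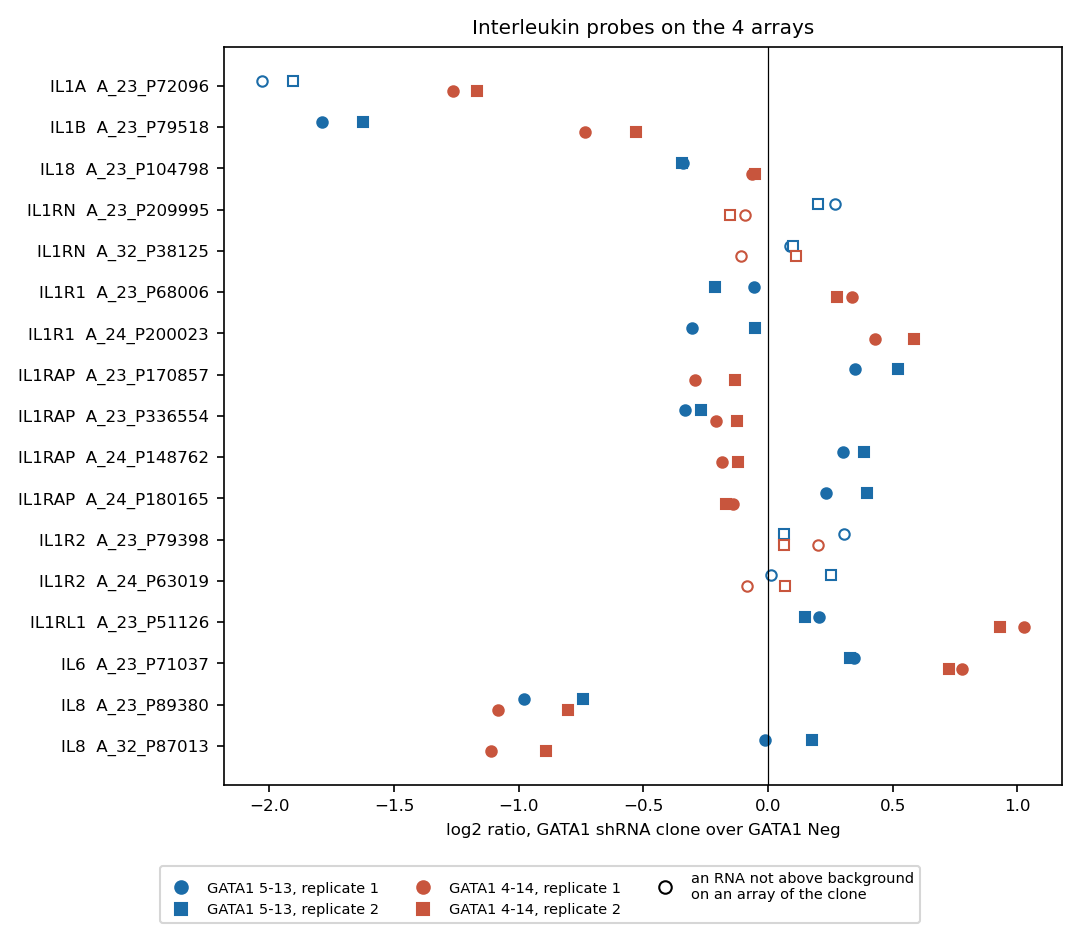
Log2 ratio of GATA1 shRNA clone over GATA1 Neg (horizontal axis) for each of the 17 interleukin probes (rows), 1 point for each of the 4 arrays. Blue is GATA1 5-13, red is GATA1 4-14, circles are replicate 1, squares are replicate 2, and hollow points mark a clone with an RNA not well above background on at least 1 of its arrays. The IL1A and IL1B points lie below -0.5 on all arrays, the IL6 points lie above 0, and on the 3 long-transcript IL1RAP probes (all but A_23_P336554) the GATA1 5-13 points lie above 0 and the GATA1 4-14 points below it.

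The 2 interleukin-1 agonists had the lowest mean log2 ratios of the 17 probes over both clones. IL1A encodes interleukin-1 alpha, which is active without cleavage and acts from the cell surface, the nucleus and on release. Its probe A_23_P72096 (chromosome 2, 113248833 to 113248892 of hg18, minus strand) had normalized intensities in GATA1 Neg of 384, 400.5, 388 and 398 on the 4 arrays. The knockdown RNA read 94.1 and 107.0 in GATA1 5-13, and 162 and 177 in GATA1 4-14. Every knockdown reading lay below every control reading, and those of GATA1 5-13 lay below those of GATA1 4-14. In GATA1 5-13 neither array held a knockdown signal well above background, so that only a bound can be given for that clone, a level at least 3.60-fold lower. The bound takes the higher of the dimmest signal well above background and the probe's own reading on each array, and it was 5.09 with a normexp offset of 16 and 1.73 with no background correction. In GATA1 4-14, where both RNAs were above background, the log2 ratios were -1.26 and -1.17, or 2.32-fold lower. The fit over both clones, which takes the dim readings of GATA1 5-13 as they are, gave a mean of -1.59 ± 0.53 (SD, n = 2 clones) with an adjusted p of 0.56 by limma. That mean was -0.71 with no background correction and -2.83 with the Feature Extraction log ratios. In bulk RNA of this kind, fewer cells with a transcript and less of it in each cell cannot be told apart.

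IL1B encodes interleukin-1 beta, which is made as an inactive precursor and cleaved by caspase-1. Its probe A_23_P79518 (chromosome 2, 113303900 to 113303959, minus strand) read between 33583 and 42693 in GATA1 Neg, with the higher values on the 2 replicate 1 arrays. GATA1 5-13 read 12349 and 11347, and GATA1 4-14 read 22969 and 23245. The log2 ratios were -1.79 and -1.62 in GATA1 5-13 and -0.74 and -0.53 in GATA1 4-14, or 3.26-fold and 1.55-fold lower. No spot was saturated. The clones differed by 1.07 on the log2 scale, which was more than the 2 arrays of either clone differed. The mean was -1.17 ± 0.76 (SD, n = 2 clones), with an adjusted p of 0.645 by limma.

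IL18, a relative of interleukin-1 beta that is also cleaved by caspase-1 and drives interferon-gamma, differed less. Probe A_23_P104798 (chromosome 11, 111526021 to 111526080, minus strand) read 4455 to 4504 in GATA1 Neg, 3518 and 3544 in GATA1 5-13, and 4286 and 4320 in GATA1 4-14. All 4 knockdown readings lay below the control range. That range, here and for the other probes, is of 4 readings of a single pool and does not measure the spread between cultures. The log2 ratios were -0.34 and -0.35 in GATA1 5-13 and -0.06 and -0.05 in GATA1 4-14, with a mean of -0.20 ± 0.20 (SD, n = 2 clones) and an adjusted p of 0.716 by limma.

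**Figure D2:**
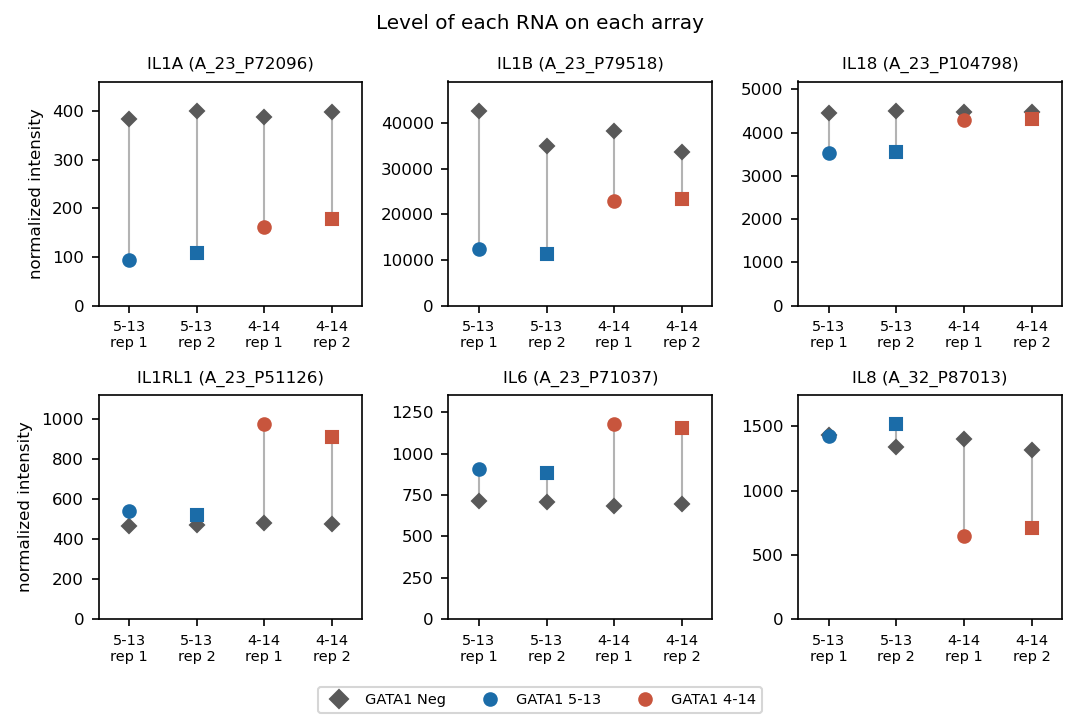
Normalized intensity (vertical axis, linear, from 0) of each RNA on each of the 4 arrays for 6 probes, with GATA1 Neg as grey diamonds, GATA1 5-13 in blue and GATA1 4-14 in red, and a line joining the 2 RNAs of an array. IL1A and IL1B lie below GATA1 Neg in both clones, IL6 and IL1RL1 above it, and the IL8 probe on chromosome 4 lies below it in GATA1 4-14 alone.

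The probes of IL1A, IL1B, IL18 and IL6 were each printed 10 times on every array, which gives the error of a single reading. All 10 spots were kept except for IL1A on replicate 1 of GATA1 5-13, where 9 were kept and 1 outlier was left out. The SD over the spots of an array lay between 0.05 and 0.10 for IL1A, 0.03 and 0.05 for IL1B, 0.03 and 0.04 for IL18, and 0.02 and 0.04 for IL6 on the log2 scale. The difference between the clones was larger than these SDs for each of the 4 probes. Spots of an array share 1 RNA pair, so that this is a technical error and not the spread between cultures.

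**Figure D3:**
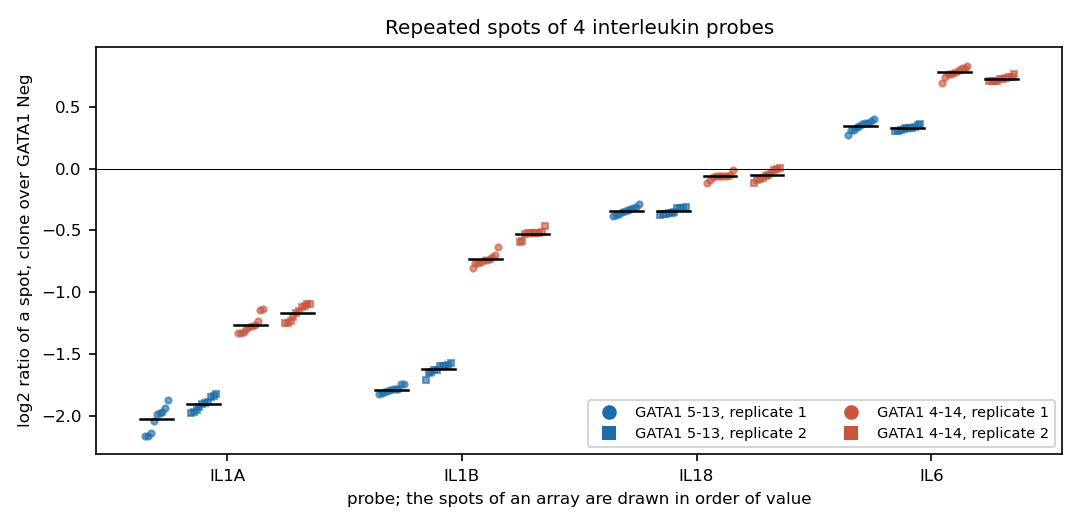
Log2 ratio of each spot kept (vertical axis) for the 4 repeated probes, drawn in order of value within an array, with a bar at the mean. There are 10 spots per array, and 9 for IL1A on replicate 1 of GATA1 5-13. The spots of an array lie close together, and the arrays of GATA1 5-13 (blue) and GATA1 4-14 (red) form separate groups for each probe.

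The antagonist IL1RN was close to the limit of detection. Probe A_32_P38125 was not well above background in either RNA on any array. Probe A_23_P209995 (chromosome 2, 113607479 to 113607538, plus strand) was above background only in the knockdown RNA of 1 array of GATA1 5-13. In that clone it read 113.8 and 113.1 against 94.4 and 98.3 in the control, a bound of at least 1.12-fold higher. In GATA1 4-14 it was not well above background in either RNA, and no fold can be given. At this signal a difference in the antagonist was not detectable in GATA1 4-14.

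Among the receptors, the signaling chain IL1R1 had opposite signs in the clones on both of its probes. Probe A_24_P200023 (chromosome 2, 102161826 to 102161885, plus strand) read 180 to 205 in GATA1 Neg, 166 and 174 in GATA1 5-13, and 256 and 269.6 in GATA1 4-14. Its log2 ratios were -0.30 and -0.05 in GATA1 5-13 and 0.43 and 0.59 in GATA1 4-14. The second probe, A_23_P68006, had -0.06 and -0.21 in GATA1 5-13 and 0.34 and 0.27 in GATA1 4-14, but its control readings spanned 132 to 202 and overlapped those of both clones. Averaged over the clones the probes had 0.16 ± 0.48 and 0.09 ± 0.31 (SD, n = 2 clones), with adjusted p of 0.874 and 0.906 by limma.

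IL1RAP, the shared accessory chain, was read by 4 probes, 3 of them for the transcript NM_002182, which encodes the membrane protein, and 1 for NM_134470, a shorter transcript that encodes a soluble form. The probe of the short transcript, A_23_P336554 (chromosome 3, 191830388 to 191830447, plus strand), lies 18.5 kb before the nearest of the others. It was lower on all 4 arrays, with log2 ratios of -0.33 and -0.27 in GATA1 5-13 and -0.21 and -0.12 in GATA1 4-14, a mean of -0.23 ± 0.09 (SD, n = 2 clones) and an adjusted p of 0.655 by limma. The 3 probes of the long transcript were higher in GATA1 5-13 and lower in GATA1 4-14. The brightest of them, A_23_P170857 (chromosome 3, 191851662 to 191851721), read 4716 to 5081 in GATA1 Neg, 6322 and 6803 in GATA1 5-13, and 4152 and 4298 in GATA1 4-14, so that 1 clone lay above the control range and the other below it. Its log2 ratios were 0.35 and 0.52 in GATA1 5-13 and -0.29 and -0.13 in GATA1 4-14.

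The 3 long-transcript probes moved alike. Their means in GATA1 5-13 lay between 0.31 and 0.43, and those in GATA1 4-14 between -0.21 and -0.15. In GATA1 5-13 the short transcript was therefore 0.63 and 0.70 lower than the mean of the long-transcript probes on the log2 scale on its 2 arrays. In GATA1 4-14 the corresponding differences were -0.01 and 0.02. These are differences of ratios within an array, with 1 clone on each side and no test. Averaged over both clones, the long-transcript probes had log2 ratios of 0.08 to 0.11 with adjusted p of 0.906 to 0.916 by limma.

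The decoy receptor IL1R2 was dim. Probe A_24_P63019 was above background in neither RNA on any array. Probe A_23_P79398 (chromosome 2, 102011208 to 102011267, plus strand) was above background in the knockdown RNA on 4 of 4 arrays and in GATA1 Neg on 1 of 4. It read 134 and 122 in GATA1 5-13, 126 and 136 in GATA1 4-14, and 109 to 130.4 in GATA1 Neg, so the ranges overlapped. For GATA1 4-14, the control RNA was above background on neither array. The control's own readings set the bound there, so that it equals the measured mean ratio, 1.10-fold higher. The log2 ratios of the probe on the arrays of that clone were 0.20 and 0.06. In GATA1 5-13 its log2 ratios were 0.30 and 0.06, and the adjusted p over both clones was 0.681 by limma.

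IL1RL1 was higher on all 4 arrays, mostly through GATA1 4-14. Its probe A_23_P51126 (chromosome 2, 102326191 to 102326250, plus strand), for the transcript of the membrane receptor, read 468 to 479 in GATA1 Neg, with a coefficient of variation of 1.09%. GATA1 5-13 read 540 and 522, and GATA1 4-14 read 976 and 910.2. All 4 knockdown readings lay above the control range, and those of GATA1 4-14 lay far above those of GATA1 5-13. The log2 ratios were 0.21 and 0.15 in GATA1 5-13 and 1.03 and 0.93 in GATA1 4-14, or 1.13-fold and 1.97-fold higher. The mean was 0.58 ± 0.57 (SD, n = 2 clones), so the spread between the clones was about as large as the mean, and the adjusted p was 0.691 by limma.

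IL6, the pleiotropic cytokine of the acute phase response, which also acts on megakaryocytes, was higher on all 4 arrays. Its probe A_23_P71037 (chromosome 7, 22737732 to 22737791, plus strand) read 687 to 714 in GATA1 Neg. The readings were 908 and 885 in GATA1 5-13 and 1179 and 1154 in GATA1 4-14, all above the control range. The log2 ratios were 0.35 and 0.33 in GATA1 5-13 and 0.78 and 0.73 in GATA1 4-14, or 1.26-fold and 1.69-fold higher. The mean was 0.54 ± 0.29 (SD, n = 2 clones), with an adjusted p of 0.627 by limma. With the 4 arrays taken as 4 values, although the arrays of a clone are not separate clones, the adjusted p by limma was 0.0493. That fit placed 2 of the 17 probes as lower (1.8% of all probes) and 1 as higher (1.23%), and with the replicate number as a block it placed 1 as lower (0.408%) and 0 as higher (0.249%).

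IL8 encodes the chemokine interleukin-8, which attracts neutrophils. Of its 2 probes, A_32_P87013 (chromosome 4, 74828129 to 74828188, plus strand) matches the RefSeq transcript of CXCL8. It read 1319 to 1434 in GATA1 Neg, 1422 and 1517 in GATA1 5-13, and 648 and 711 in GATA1 4-14. The readings of GATA1 5-13 overlapped the control range, and those of GATA1 4-14 lay below it. The log2 ratios were -0.01 and 0.18 in GATA1 5-13 and -1.11 and -0.89 in GATA1 4-14, the latter 2.00-fold lower. The mean was -0.46 ± 0.77 (SD, n = 2 clones), with an adjusted p of 0.765 by limma, and without GATA1 4-14 it was 0.08.

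The other probe that carries the name IL8, A_23_P89380, had the smallest p of the 17, but the array file places it elsewhere. Its position is chromosome 17, 39682083 to 39682142 of hg18, on the minus strand, 1.27 kb from the nearest probe of SLC4A1, the erythrocyte anion exchanger, which lies on the same strand, and its accession was not matched to a current symbol. Its log2 ratios were -0.98 and -0.74 in GATA1 5-13 and -1.08 and -0.80 in GATA1 4-14. The mean was -0.90 ± 0.06 (SD, n = 2 clones), 1.82-fold and 1.92-fold lower in the clones, with an adjusted p of 0.403 by limma. In GATA1 5-13, where this probe was lower, the chromosome 4 probe of IL8 was not. The SLC4A1 probe nearest to it, A_23_P77980, had a mean log2 ratio of -0.12. Which transcript this probe reads was not settled, and its value is given for the probe and not for interleukin-8. Without it, a setting chosen after seeing the data, 3 of the remaining probes were lower at an unadjusted p under 0.05 by limma.

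The clones were compared probe by probe, with no test, since each is 1 replicate. On 13 of the 17 probes the 2 arrays of GATA1 5-13 did not overlap those of GATA1 4-14 (49.5% of all probes), with GATA1 5-13 the lower clone on 8 (25.2% of all probes) and the higher on 5 (24.2%). On 6 of the 17 every array of one clone was above 0 and every array of the other below it (15.9% of all probes). The median absolute difference between the clones was 0.44 on the log2 scale over the 17 probes and 0.10 over all probes. IL1A, IL1B and IL18 were lower in GATA1 5-13 than in GATA1 4-14. IL8 on chromosome 4 was the reverse, 1.08 higher in GATA1 5-13. The single probe of GATA1 itself was 0.23 higher in GATA1 5-13. A link between its level and the other differences between the clones was not tested. IL6, IL1RL1 and IL1R1 were higher in GATA1 4-14 by 0.42, 0.80 and, for the 2 probes of IL1R1, 0.44 and 0.68.

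**Figure D4:**
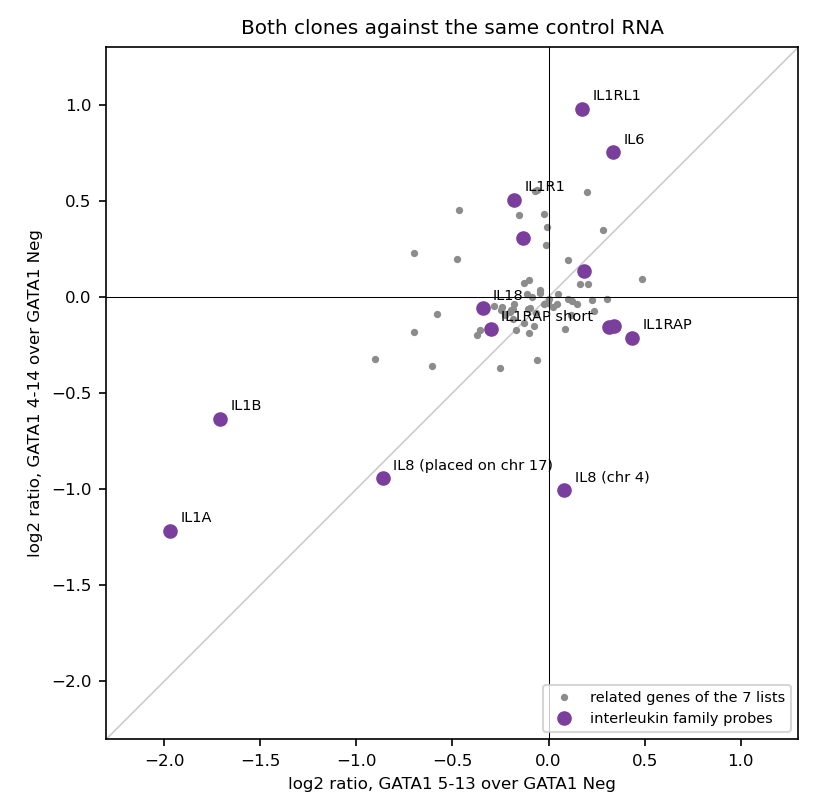
Mean log2 ratio over GATA1 Neg in GATA1 5-13 (horizontal axis) and in GATA1 4-14 (vertical axis) for the interleukin family probes (purple) and the related probes of the 7 lists (grey) that were above background on all arrays in at least 1 RNA. The diagonal marks equal ratios. IL1A and IL1B lie far to the left of the other probes, IL1RL1 and IL6 at the top, and the IL8 probe on chromosome 4 near -1.002 on the vertical and 0.082 on the horizontal axis. Both axes share the GATA1 Neg RNA.

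The genes around the receptors and ligands were read in the same way. IL1R2, IL1R1, IL1RL1 and IL18R1 lie in 1 run on chromosome 2. Both probes of IL18R1, the interleukin-18 receptor chain, which was chosen for mention after its values were seen, had log2 ratios of 0.55 and 0.56 in GATA1 4-14 and of -0.07 and -0.06 in GATA1 5-13, the same signs as IL1R1. Its neighbor IL18RAP, the second chain of that receptor, had 0.09 in GATA1 4-14 and 0.49 in GATA1 5-13. Within 500 kb of the receptor run, 12 bright probes of genes outside the family list had mean log2 ratios between -0.24 and 0.29, with a median of 0.11. Around the ligands, 24 such probes lay between -0.42 and 0.33 with a median of -0.02. IL1A and IL1B, with means of -1.59 and -1.17, lay outside that range.

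**Figure D5:**
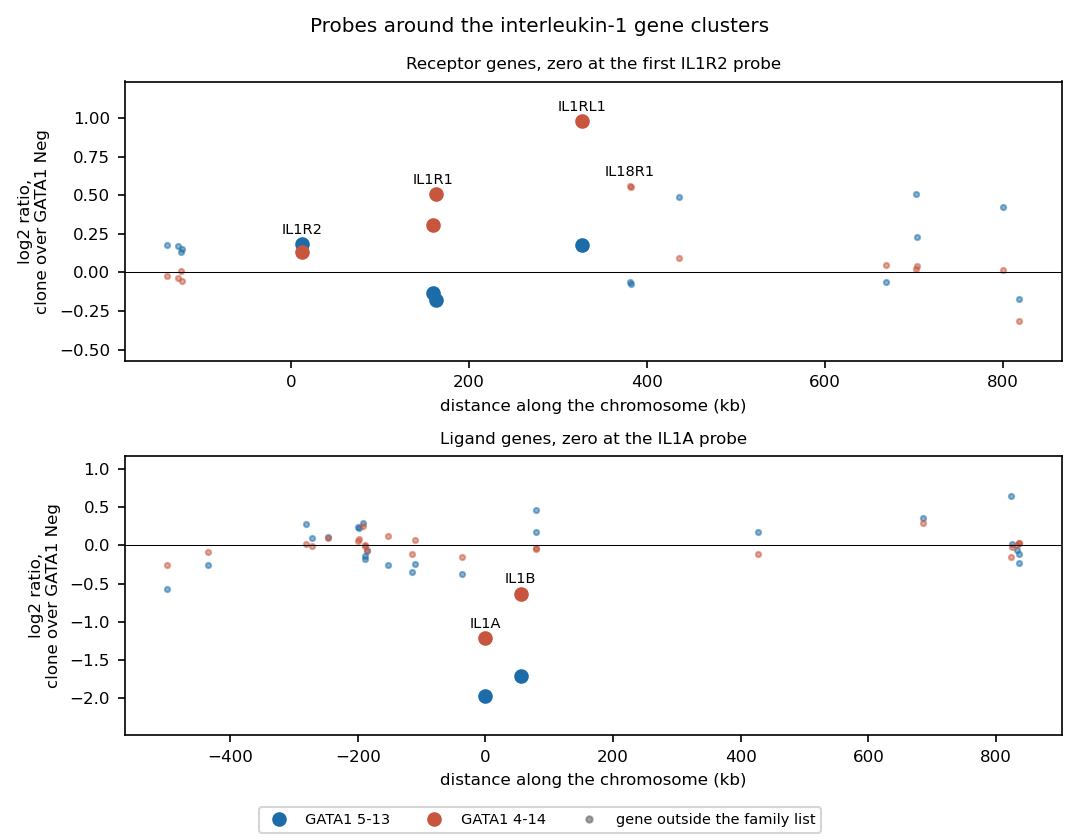
Mean log2 ratio over GATA1 Neg (vertical axis) of GATA1 5-13 (blue) and GATA1 4-14 (red) against distance along chromosome 2 in kb (horizontal axis), for probes above background on all arrays in at least 1 RNA, within 500 kb of the receptor genes (upper panel) and of the ligand genes (lower panel). Large points are family members and small points are other genes. IL1R1, IL1RL1 and IL18R1 lie above 0 in GATA1 4-14, and IL1A and IL1B lie below all of the other genes shown around them.

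Related genes of the pathway were counted from 7 lists with 92 probes of 65 genes. None passed the adjusted threshold, and 7 were lower and 2 higher at an unadjusted p under 0.05 by limma, against 4.04% and 3.38% of all probes. The other ligands of the family, 8 probes, were dim: 5 were above background nowhere, and their log2 ratios lay between -0.06 and 0.08. Of the inflammasome list, whose products assemble to activate caspase-1, 5 of 14 probes were lower at that p and 0 higher, with a median log2 ratio of -0.12. These 5 were 3 probes of NLRP1, 1 of PYCARD and 1 of AIM2, the last above background in neither RNA on any array.

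NLRP1, an inflammasome sensor, had -0.96 and -0.84 in GATA1 5-13 and -0.39 and -0.25 in GATA1 4-14 on probe A_23_P107351, with a mean of -0.61 ± 0.41 (SD, n = 2 clones) and an adjusted p of 0.66 by limma. Its probe A_23_P89550 had a mean of -0.48 ± 0.17 and an adjusted p of 0.576. The direction was the same on all 4 arrays for both. PYCARD, the inflammasome adaptor, had a mean of -0.31 ± 0.08 (SD, n = 2 clones), with an adjusted p of 0.592 by limma. CASP1, the protease that cleaves interleukin-1 beta and IL18, was above background on only 1 of 4 arrays in each RNA, and no difference is given for it.

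Of the receptor signaling list, 1 of 15 probes was lower and 0 higher at an unadjusted p under 0.05. That probe was IRAK4, a receptor-proximal kinase, with a mean log2 ratio of -0.17 and an adjusted p of 0.67 by limma. IRAK3, the inhibitory member of the same kinase family, had -0.33 ± 0.35 (SD, n = 2 clones), with -0.59 and -0.57 in GATA1 5-13 and -0.09 on both arrays of GATA1 4-14. Of the other receptors and binding proteins, 1 of 9 probes was lower and 0 higher. It was SIGIRR, a negative regulator of the pathway, at -0.28 ± 0.13 (SD, n = 2 clones) with an adjusted p of 0.634 by limma. IL18RAP had 0.29 ± 0.28 (SD, n = 2 clones).

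Of the NF-kappaB list, all 20 probes were above background in both RNAs on all arrays, and 0 were lower and 1 higher at an unadjusted p under 0.05. The higher one was a probe of TNFAIP3, an inhibitor of NF-kappaB that is itself a target of it, at 0.32 ± 0.05 (SD, n = 2 clones) with an adjusted p of 0.576 by limma, and its other named probe had 0.15. BIRC3, another target, had -0.44 ± 0.36 (SD, n = 2 clones), and the kinase IKBKB had -0.16 on the probe named by rule and -0.03 and -0.01 on its other 2. Among the IL-8 receptors and related chemokines, 0 of 11 probes were lower and 1 was higher at that p. It was CXCL2, a neutrophil chemokine, with 0.16 and 0.24 in GATA1 5-13 and 0.52 and 0.57 in GATA1 4-14, and an adjusted p of 0.669 by limma, and its other probe had 0.18. CXCL1 was above background in the knockdown RNA on only 1 of 4 arrays, and no difference is given for it. In the IL-6 family list, 0 of 15 probes passed an unadjusted p of 0.05 in either direction, and IL6ST and IL11RA, the shared signal chain and the interleukin-11 receptor, had -0.19 and -0.20, with -0.03 on the other probe of IL11RA.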

How the data were processed

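The authors deposited the scanner output of 4 arrays (Agilent Feature Extraction 9.5.3.1), which gives hg18 positions for the probes. The intensities in it (mean of each spot, median of its local background, 2 channels) were deposited by the authors without correction. The log10 ratio per spot was deposited after that program's background subtraction and dye normalization, and a series-wide table deposited by the authors holds log10 ratios too. The error of each log10 ratio, a score of that program, was deposited with it, and both were used for alternatives alone.

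With R 4.3.3 and limma 3.58.1, normexp (offset 50) was run on 45015 spots, loess within arrays with controls at weight 0, outlier spots were left out, and spots of a probe were averaged. The normexp offset makes the ratios of dim probes smaller than background subtraction without it does. With no background correction, the ratios of IL1A and IL1RL1 were smaller still. Each clone was 1 replicate, the average of its 2 arrays, as no source names separate RNA extracts, so p-values measure the spread between 2 clones and leave out that of GATA1 Neg. In limma, the clones were tested together for a mean log2 ratio other than 0, in either direction, and p-values were adjusted by Benjamini-Hochberg across 40974 probes. Normalized intensities are those after loess and Aquantile between arrays, per channel. Between 61.6% and 66.4% of the spots of a channel were well above background, and the number of arrays limits the precision. All arrays lay on 1 slide, so a slide effect could not be tested.

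The replicate number stands for the dye orientation, and deviations of same-numbered arrays from their clone means correlated at 0.773. The number was not taken as a pairing of samples, and the blocked fit is an alternative. Other alternatives were background correction, normalization, outlier spots, a filter on dim probes, the moderation, the unit of replication, an error-weighted mean that approximates the Rosetta Resolver step of the methods, and each array and clone left out. The tests were tried on simulated data.

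The members and all gene lists were chosen with earlier results of these data known. The text names every member probe, GATA1, from each list the up to 2 probes with the highest and the lowest mean log2 ratio among those with 1 sign on 4 arrays and the brighter RNA above background, and any list probe with an unadjusted p at or under 0.005. PYCARD, AIM2, CASP1, IL18R1 and SLC4A1 fall outside that rule and were named after their values were seen. RefSeq accessions of 15 of the 17 probes were matched to current symbols. The study's ChIP-on-chip experiment was not used here.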

Additional observations from a re-analysis of the deposited data

Results flagged for a closer look

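Of the 12 interleukin probes above background in both RNAs on all 4 arrays, 5 had one sign on every array of one clone and the opposite sign on every array of the other. A sixth probe, IL1RN A_23_P209995, had the same pattern but was above background in a single reading, and 15.9% of all probes had it. The difference between the clones was not tested, since each is 1 replicate. GATA1 5-13 minus GATA1 4-14 on the log2 scale, IL1RAP had 0.65, 0.50 and 0.47 on its 3 long-transcript probes A_23_P170857, A_24_P148762 and A_24_P180165. IL1R1 had -0.44 on probe A_23_P68006 and -0.68 on probe A_24_P200023. On these 5 probes, the chain that binds the ligand and its accessory chain differed between the clones in opposite directions. Among them, the readings of A_23_P68006 overlapped those of the control RNA in both clones. The short-transcript probe of IL1RAP, A_23_P336554, lies outside these 5 and had -0.13, the same direction as IL1R1.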

How the results depend on the processing

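The count of 0 interleukin probes past the adjusted threshold became 3 with the 4 arrays as 4 values (IL1A, IL6 and the chromosome 17 probe named IL8). It was 1 with the replicate block added (the chromosome 17 probe), and 7 with the error-weighted mean. Of all probes, 3.03%, 0.657% and 8.33% passed in these 3 fits. The count of 0 among the 92 related probes became 2 with the 4 arrays as 4 values (3.03% of all probes passed) and 10 with the error-weighted mean (8.33%). Interleukin probes lower at an unadjusted p under 0.05 by limma numbered 4, and 1 with the Feature Extraction log ratios or the series-wide table, which holds the same measurement. With those ratios the chromosome 17 probe stayed lower, IL1A, IL1B and IL1RAP A_23_P336554 had unadjusted p of 0.112, 0.159 and 0.062 by limma, and the 1 higher probe was IL1R2 in place of IL6. Those higher numbered 1, and 0 with no background correction, 3 with the 4 arrays as 4 values, 3 with the replicate block, and 4 with the error-weighted mean. For the counts at an unadjusted p, and for the clone overlap below, the share of all probes was taken in the main processing alone. These changes are therefore not shown to be particular to the interleukin probes. The causes were not tested, but the fits of 4 arrays as 4 values, with and without the block, and the error-weighted mean replace the spread between clones by that between arrays or spots. Without 1 array at a time the adjusted counts stayed at 0, the count lower was 3 to 4 and the count higher was 1. The count of 13 probes whose clones did not overlap was 9 with median centring in place of loess and 12 to 13 under the other alternatives run. Leaving out a clone turned the sign of 6 of the 14 probes above background in an RNA on at least 2 arrays, and of 2 of the 3 others. With 2 clones, these are the probes whose clone means have opposite signs. The share of all probes with such means was not counted, so this is not shown to be a trait of the interleukin probes. Without GATA1 5-13 and without GATA1 4-14, IL1RAP had -0.21 and 0.43 on A_23_P170857, -0.15 and 0.34 on A_24_P148762, and -0.15 and 0.31 on A_24_P180165. IL1R1 had 0.31 and -0.14 on A_23_P68006 and 0.51 and -0.18 on A_24_P200023, and IL8 had -1.002 and 0.082 on A_32_P87013. In the error-weighted mean the adjusted p was 6.6e-43 for IL1A, 3.8e-18 for IL1B, 2.9e-07 for IL1RL1, 1.0e-06 for IL6, 0.0012 for IL8 on chromosome 4 and 0.042 for IL1R2. Signal over background limits IL1RN, IL1R2 and, in GATA1 5-13, IL1A.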
